A study of Rattus norvegicus with 32 samples.

Results

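The 6 arrays titled pituitary gland were compared with the 6 titled hippocampus, which are 12 of the 32 arrays of the series. All 12 were taken by their titles. The series profiled adult female rats of DA/SD strain with a targeted *Csf1r* locus, in which a drug selection cassette disrupts the first coding exon of the receptor for the macrophage growth factors CSF1 and IL-34. Each title holds 2 arrays of *Csf1r*+/+ (WT), 2 of *Csf1r*+/- (HET) and 2 of *Csf1r*-/- (KO) rats. All mutant rats trace to 1 targeted embryonic stem cell clone of Dark Agouti origin, and the tissues were snap frozen without perfusion, so that blood was not washed out. The methods name 2 rats per genotype, but the labels do not tie the arrays of 2 titles to the same rat. The arrays were of the Rat Gene 2.1 ST type (Affymetrix), and a level below is a log2 intensity, so that a difference of 1 is 2-fold. Levels of different genes come from different probe sets and are not set against each other.

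The titles were checked against genes that define the tissues. On the pituitary-labelled arrays *Pomc*, the precursor of the hormone ACTH, lay between 3.31 and 4.50, and *Tshb*, the beta chain of thyrotropin, between 1.53 and 2.32, as low as on the hippocampus arrays (3.40 to 3.95 and 1.503 to 2.415). *Gh1*, growth hormone, lay between 5.23 and 7.37 and *Prl*, prolactin, between 5.96 and 9.64. On the 6 arrays titled olfactory bulbs the same genes stood at 11.10 to 11.52 (*Pomc*), 9.997 to 10.59 (*Tshb*), 12.68 to 12.91 (*Gh1*) and 12.07 to 12.18 (*Prl*). *Th*, *Calb2* and *Sp8*, which mark interneurons of the olfactory bulb, and *Doc2g*, a gene of its mitral and tufted cells, were high on the pituitary-labelled arrays, at 9.12 to 10.22, 10.03 to 10.41, 7.51 to 8.02 and 8.86 to 9.63. On the arrays titled olfactory bulbs *Th* lay between 2.71 and 3.94, *Calb2* between 4.305 and 5.82 and *Sp8* between 2.41 and 3.45, while *Doc2g* was high there too, between 6.93 and 8.595. The data go against the title, and the arrays are called pituitary-labelled throughout. A further field of the labels names the striatum for these arrays, while the striatal receptor gene *Drd1* lay between 3.47 and 4.42 on them, against 9.23 to 9.64 on the arrays titled striatum. The hippocampus title fitted its markers *Neurod6* (8.002 to 8.714) and *Prox1* (7.21 to 8.34).

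The olfactory bulb is the first relay of smell. Axons of olfactory sensory neurons, which sit in the mucosa of the nose, end there in glomeruli on the dendrites of mitral and tufted cells, the glutamatergic output neurons. Most other bulb neurons are inhibitory granule and periglomerular cells, some of which make dopamine, and these are replaced through life by neuroblasts that migrate in from the wall of the lateral ventricle. Olfactory ensheathing glia wrap the incoming axons. The hippocampus, which forms spatial and episodic memories, is built mainly of glutamatergic neurons, the granule cells of the dentate gyrus and the pyramidal cells of fields CA1 to CA3.

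Of 10107 genes tested, 1126 were at least 2-fold higher on the pituitary-labelled arrays at an adjusted p under 0.05 (11.1%) and 506 at least 2-fold lower (5.01%), and a gene is called higher or lower below where it met both thresholds. In 1011 of the former and 437 of the latter no pituitary-labelled array overlapped a hippocampus array, which held for 29.8% of all genes tested in the higher and 10.9% in the lower direction, with or without a call. A difference of at least 4-fold was seen for 208 higher and 118 lower genes, and one of at least 16-fold for 15 and 6. Without a fold threshold 6420 genes (63.5%) passed the test, 44.9% of all genes tested higher and 18.6% lower, so that a pass alone says little here. The excess of higher genes depended on the scaling. The median difference of all genes tested was 0.24, and after a repeated quantile normalization, which put it at -0.002, 690 genes were higher and 770 lower, while centring each array on its median gave 616 and 911, with a median difference of -0.07. The share of calls that were higher thus moved from 69.0% to 47.3% and 40.3%, and the differences below are on the deposited scale, which includes the shift of 0.24. The 11963 probe sets without a single gene symbol had a median difference of -0.22 on the same arrays.

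**Figure D1:**
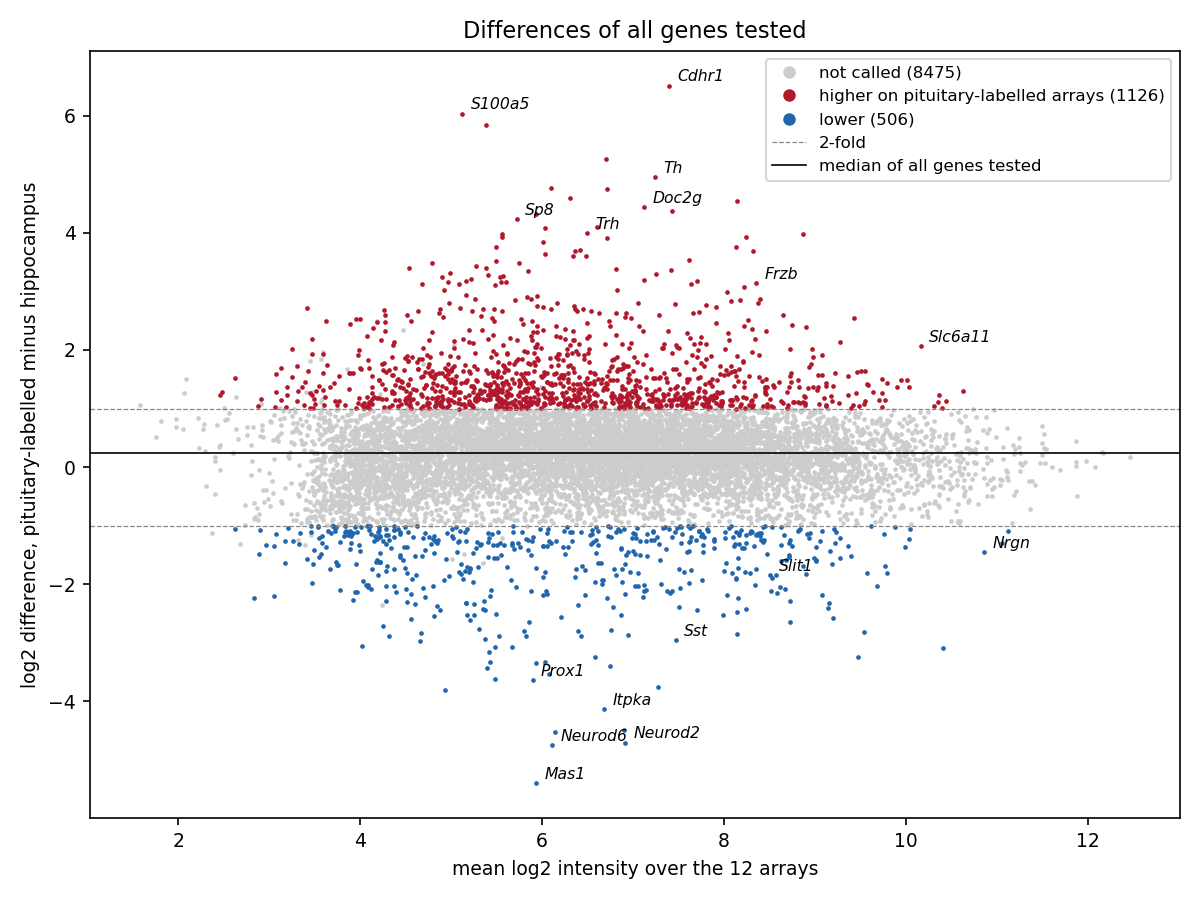
Log2 difference, pituitary-labelled minus hippocampus, of the 10107 genes tested (y axis) against the mean log2 intensity over the 12 arrays (x axis); red marks the 1126 higher and blue the 506 lower genes, the solid line is the median of all genes (0.24) and the dashed lines are 2-fold. *Cdhr1* at 6.51 and *Mas1* at -5.39 lie near the ends of the y axis.

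The 4 bulb markers were all higher on the pituitary-labelled arrays. They had served above to check the title and were chosen with these data known, so their tests add no separate support on the tissue. The files hold no detection calls, and an intensity of 20, a log2 level of 4.32, is taken as the floor below. Where every array of the lower title is under it, as for *Ebf2* and 32 of the other 157 called genes named here, the measured difference has no order against others. A fold is then given only as a lower bound, with those arrays set to the floor. Some of these genes are given below by their measured log2 difference alone, whose size the arrays do not resolve. *Th*, tyrosine hydroxylase, the rate-limiting enzyme of dopamine synthesis, lay between 9.12 and 10.22 (median 9.71) on the pituitary-labelled arrays and between 3.61 and 5.28 (median 4.88) on the hippocampus arrays, a difference of 4.95 (SE 0.26, adjusted p = 5.23e-08). *Calb2*, the calcium-binding protein calretinin, lay between 10.03 and 10.41 (median 10.21) on the pituitary-labelled arrays and between 5.17 and 7.598 (median 6.11) on the hippocampus arrays, with the hippocampus arrays HET 1 and KO 2 at 7.399 and 7.598 and a difference of 3.94 (SE 0.44, adjusted p = 1.35e-05). *Doc2g*, a C2-domain protein, lay between 8.86 and 9.63 (median 9.38) on the pituitary-labelled arrays and between 4.37 and 5.46 (median 4.84) on the hippocampus arrays and differed by 4.44 (SE 0.17, adjusted p = 6.23e-09). For none of these genes did the 2 titles overlap, and *Sp8*, a zinc finger transcription factor of bulb interneurons, was as cleanly apart, between 7.51 and 8.02 (median 7.96) on the pituitary-labelled arrays and between 3.198 and 4.096 (median 3.59) on the hippocampus arrays, with a difference of 4.23 (SE 0.17, adjusted p = 8.03e-09), or at least 11.5-fold against the floor. In tissue RNA, more cells of a type and more RNA per cell cannot be told apart.

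*Cdhr1*, a cadherin-related protein known from photoreceptors and mitral cells, lay between 10.46 and 10.94 (median 10.602) on the pituitary-labelled arrays and between 3.19 and 4.83 (median 4.196) on the hippocampus arrays, a difference of 6.51 (SE 0.22, adjusted p = 3.28e-09). Of its hippocampus arrays 5 were under the floor, and with these set to it *Cdhr1* was at least 76.1-fold higher. On the arrays titled olfactory bulbs it was also high, at 8.37 to 9.44, and on the striatum arrays at 4.18 to 6.41. *S100a5*, a calcium-binding protein of olfactory sensory neurons, and *Cpa6*, a secreted carboxypeptidase, were under the floor on all hippocampus arrays and at least 14.2-fold and 15.9-fold higher (measured differences 6.04 and 5.84). *Shisa3*, an inhibitor of Wnt and FGF signalling, differed by 5.27. *S100a5* varied widely, with 9.21, 9.57 and 9.101 on WT 1, WT 2 and HET 1, 7.71 and 7.82 on HET 2 and KO 2, and 5.45 on KO 1, yet no hippocampus array exceeded 2.45. The others among the 15 largest measured rises without overlap were *Ly6g6e* (4.77), *Scgn* (4.75), which encodes the calcium sensor secretagogin, *Omp* (4.596), the marker protein of mature olfactory sensory neurons, *Crabp1* (4.54), a retinoic acid-binding protein, *Kcnf1* (4.37), a potassium channel subunit, *Nupr1* (4.33), *Atp6ap1l* (4.09) and *Rprm* (4.08), beside *Th*, *Doc2g* and *Sp8*. *Ly6g6e* and *Nupr1* were under the floor on all hippocampus arrays and at least 17.95-fold and 13.7-fold higher. Several of the 15 were also high on other arrays of the series. On the striatum arrays *Atp6ap1l* stood at 8.35 to 9.13, *Crabp1* at 8.78 to 9.68 and *Kcnf1* at 7.94 to 8.48, against 8.35 to 8.76, 10.21 to 10.6 and 9.202 to 10.003 on the pituitary-labelled ones. On the arrays titled olfactory bulbs *Rprm* stood at 7.88 to 9.14 and *Nupr1* at 6.09 to 8.29, against 7.73 to 8.296 and 7.33 to 8.84, beside *Cdhr1* and *Doc2g*.

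**Figure D2:**
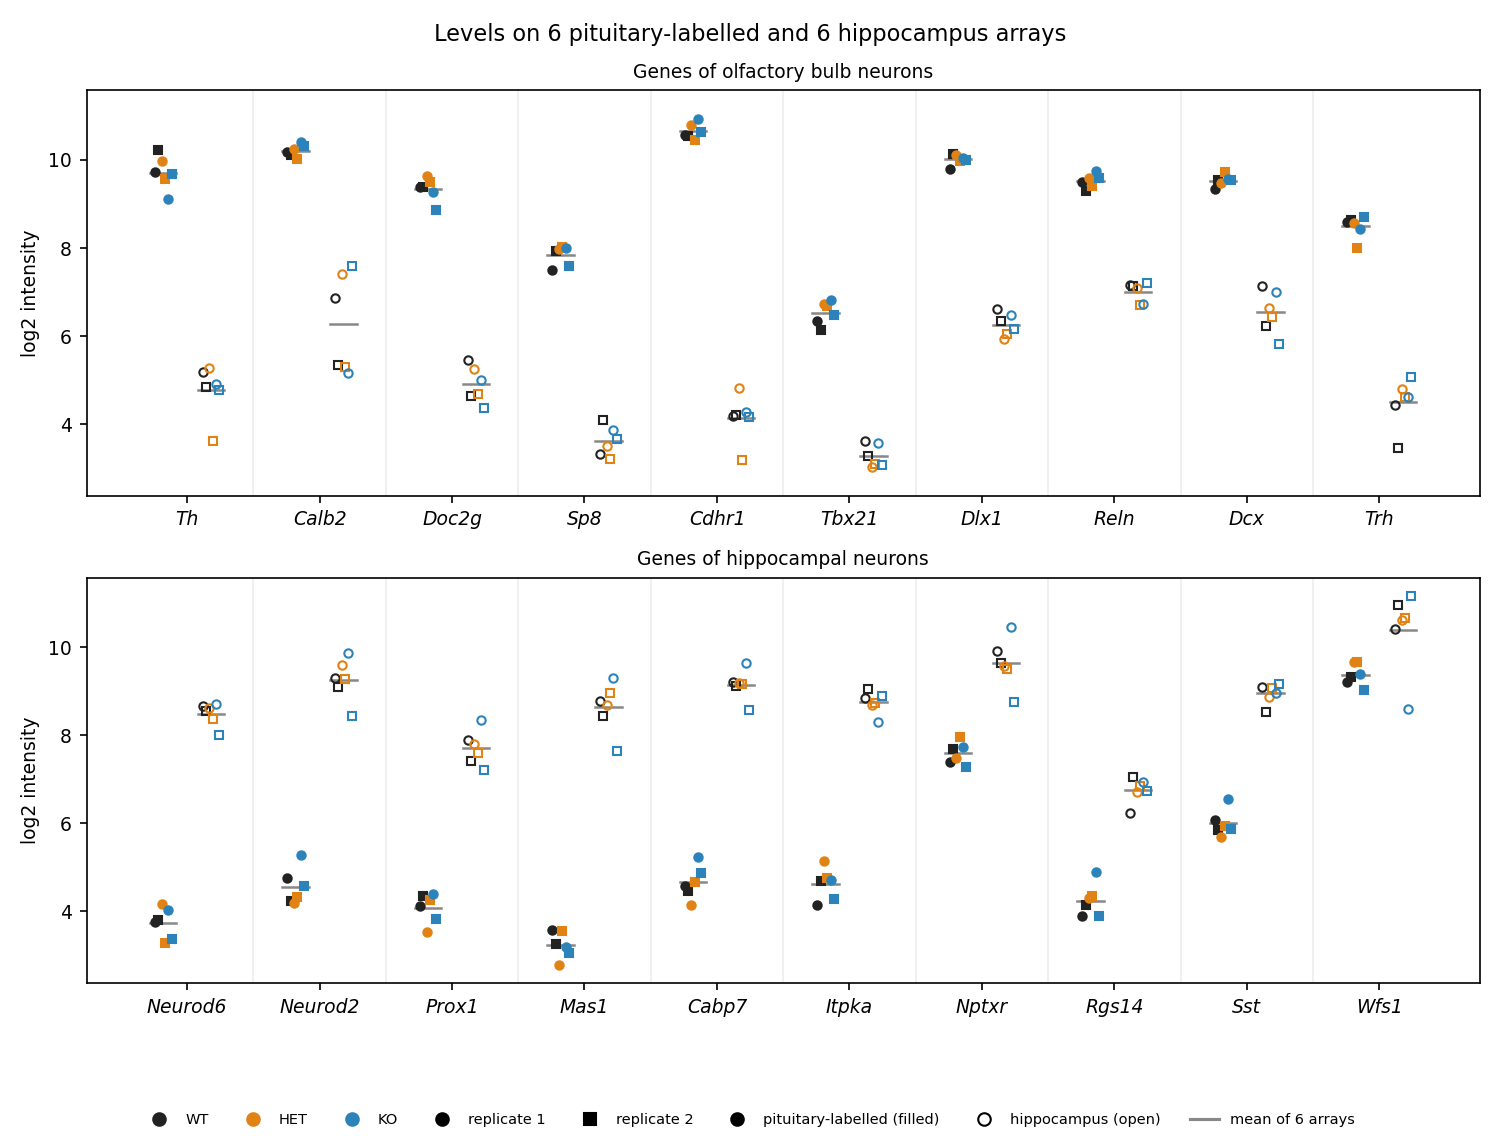
Log2 intensity (y axis) of 10 genes of bulb neurons and 10 genes of hippocampal neurons on each of the 12 arrays, filled for pituitary-labelled and open for hippocampus, coloured by genotype, with bars for the mean of 6 arrays and circles and squares for replicates 1 and 2. *Wfs1*, on the far right, is the gene whose hippocampus array KO 1 (8.59) falls below all pituitary-labelled arrays.

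Promoter sequences are shown for 3 genes that were higher (*Cdhr1*, *Th*, *Doc2g*) and 2 that were lower (*Neurod6*, *Neurod2*), since they are neuron genes that separate the 2 titles without overlap. Each runs 5′ to 3′ from 250 bases before to 50 bases after the RefSeq start of the gene on the GRCr8 assembly. The 4 motifs searched on both strands and put in capitals were the palindromic Ebf motif, the cAMP response element TGACGTCA and the E-boxes CAGATG and CAGCTG, whose matches do not overlap in these windows.
Cdhr1 (chr16:12883530-12883829, minus strand): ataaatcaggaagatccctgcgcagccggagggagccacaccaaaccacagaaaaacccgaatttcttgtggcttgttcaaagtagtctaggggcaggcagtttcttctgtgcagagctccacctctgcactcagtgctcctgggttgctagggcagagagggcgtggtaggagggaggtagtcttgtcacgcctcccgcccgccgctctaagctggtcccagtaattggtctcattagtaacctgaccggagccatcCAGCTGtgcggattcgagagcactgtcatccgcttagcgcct
Th (chr1:207508169-207508468, minus strand): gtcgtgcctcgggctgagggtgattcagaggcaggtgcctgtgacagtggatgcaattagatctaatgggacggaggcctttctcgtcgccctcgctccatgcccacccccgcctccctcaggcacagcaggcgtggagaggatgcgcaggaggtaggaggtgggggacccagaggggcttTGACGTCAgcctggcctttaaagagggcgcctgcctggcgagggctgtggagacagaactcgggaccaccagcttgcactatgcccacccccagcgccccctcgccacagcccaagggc
Doc2g (chr1:210725578-210725877, plus strand): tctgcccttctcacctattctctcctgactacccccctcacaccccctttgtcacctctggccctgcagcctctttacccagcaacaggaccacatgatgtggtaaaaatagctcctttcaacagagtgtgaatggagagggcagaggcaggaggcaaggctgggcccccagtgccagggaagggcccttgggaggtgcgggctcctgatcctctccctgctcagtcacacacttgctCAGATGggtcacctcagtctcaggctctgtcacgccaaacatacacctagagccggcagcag
Neurod6 (chr4:86180106-86180405, minus strand): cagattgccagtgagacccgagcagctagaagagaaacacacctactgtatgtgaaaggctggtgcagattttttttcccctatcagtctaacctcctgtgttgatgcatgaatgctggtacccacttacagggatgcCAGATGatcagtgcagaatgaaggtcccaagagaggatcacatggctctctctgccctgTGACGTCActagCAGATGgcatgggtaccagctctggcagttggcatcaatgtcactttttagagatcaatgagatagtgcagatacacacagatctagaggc
Neurod2 (chr10:83824228-83824527, minus strand): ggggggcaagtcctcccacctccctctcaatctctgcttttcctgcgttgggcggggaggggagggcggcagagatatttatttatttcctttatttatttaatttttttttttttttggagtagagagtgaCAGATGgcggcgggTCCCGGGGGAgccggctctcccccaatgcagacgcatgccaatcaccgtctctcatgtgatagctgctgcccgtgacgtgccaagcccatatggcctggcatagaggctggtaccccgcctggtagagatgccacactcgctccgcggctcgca

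Counting bases from 1 at the 5′ end, with 250 bases before the start of the gene, *Th* held the cAMP response element at 182 to 189 and *Neurod6* at 198 to 205. *Neurod6* also held CAGATG at 139 to 144 and at 210 to 215, *Neurod2* at 133 to 138 and *Doc2g* at 239 to 244. The palindromic Ebf motif stood in *Neurod2* at 147 to 156, and CAGCTG in *Cdhr1* at 259 to 264. The cAMP response element was in 1.91% of 27457 RefSeq promoters of this length and in 2.98% of those of the genes tested, against 2.01% of 895 promoters of higher and 2.66% of 376 promoters of lower genes. CAGATG was in 16.3% of all promoters, 11.9% of those tested, 13.4% of those of higher and 17.6% of those of lower genes, CAGCTG in 15.1%, 16.4%, 16.9% and 18.1%, and the Ebf motif in 0.841%, 0.859%, 1.23% and 1.33%. These matches describe the letters in the windows and do not show a bound site.

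Most tested transcription factors of bulb interneurons were higher. Of 27 listed, 11 were tested, 7 were higher and 1 lower, and their median difference was 2.57 against 0.24 for all genes. Of all genes tested 11.1% were higher and 5.01% lower, and each list count below stands against these shares. *Dlx1*, *Dlx5* and *Dlx6*, homeobox factors of forebrain GABAergic neurons, were higher by 3.75, 3.603 and 2.57. *Dlx1* lay between 9.801 and 10.14 (median 10.02) on the pituitary-labelled arrays and between 5.92 and 6.61 (median 6.25) on the hippocampus arrays (adjusted p = 2.62e-09). *Meis1* was higher by 3.7, *Tshz1*, which granule cells need to reach their place, by 2.86, and *Sp9* by 2.498. *Zic1* (1.13, adjusted p = 0.0597) and *Zic2* (0.701) were not called, and their hippocampus arrays spread widely, *Zic1* reaching 9.34 (HET 1) and 8.84 (KO 2) where the other 4 had 6.28 to 7.503. *Isl1*, a factor of striatal neurons, stayed under 2-fold (0.62, adjusted p = 0.0412). The lower gene was *Nr4a2*, a nuclear receptor that dopamine neurons need and that activity also induces, between 7.03 and 8.35 (median 7.73) on the pituitary-labelled arrays and between 8.97 and 10.08 (median 9.49) on the hippocampus arrays, a difference of -1.85 (SE 0.15, adjusted p = 1.31e-06).

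Most tested genes for making and moving dopamine and GABA followed. Of 13 listed, 7 were tested and 6 were higher, with a median difference of 2.06. *Gch1* and *Slc18a2*, also listed, reached at most 2.98 and 4.02 on the 12 arrays, under the floor, and were not tested. With no intensity filter the median was 1.40. *Slc6a3*, the dopamine transporter, lay between 4.398 and 5.82 (median 5.41) on the pituitary-labelled arrays and between 2.48 and 3.62 (median 2.88) on the hippocampus arrays. Its measured difference was 2.38 (SE 0.24, adjusted p = 6.51e-06), or at least 2.01-fold against the floor. *Slc32a1*, which loads GABA into synaptic vesicles, was higher by 2.46 (from 8.797 to 9.51, median 9.15, against 6.36 to 7.16, median 6.63), *Slc6a11*, a GABA transporter of astrocytes, by 2.06, and *Gad2*, which makes GABA, by 1.398. *Drd2* was higher by 1.08, at 5.99 to 6.28, under its 10.72 to 11.302 on the striatum arrays, and *Drd1* did not pass (-0.204, adjusted p = 0.401).

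Among genes of mitral and tufted cells, 7 of the 11 tested were higher and none lower, with a median difference of 1.45. For all genes tested the shares were 11.1% and 5.01%. *Tbx21*, a T-box factor that in the mouse bulb marks these cells, lay between 6.13 and 6.81 (median 6.58) on the pituitary-labelled arrays and between 3.02 and 3.61 (median 3.18) on the hippocampus arrays and was higher by 3.25 (SE 0.15, adjusted p = 2.24e-08). *Reln*, the secreted guidance protein reelin, was higher by 2.52 (from 9.29 to 9.75, median 9.54, against 6.71 to 7.201, median 7.11). *Lbhd2* was higher by 1.45 and *Barhl2* by 1.27, for *Barhl2* at least 1.81-fold against the floor. The remaining higher gene, *Ebf2* (1.45), rested on arrays that carry mucosa genes, described further below. It stood at 6.07 on KO 2 and 4.74 on HET 1, and at 3.03 to 3.99 on the other pituitary-labelled arrays. On WT 1, WT 2 and KO 1 it was under 2-fold (0.96). *Lhx1* and *Lhx5*, also listed, were under the floor on all 12 arrays and were not tested. *Slc17a6*, the vesicular glutamate transporter VGLUT2, did not pass the test (1.12, adjusted p = 0.0928), with hippocampus arrays HET 1 and KO 2 at 7.81 and 8.21 and the others at 4.53 to 5.81, against 7.18 to 7.55 on the pituitary-labelled arrays. The same 2 hippocampus arrays were the high ones for *Calb2* and *Zic1*. Leaving out the 5 arrays described further below removes KO 2. It also leaves no pituitary-labelled HET array, so that hippocampus HET 1 adds nothing to the difference. With both high arrays thus out of it, *Slc17a6* was higher by 2.21.

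Genes of migrating neuroblasts and the cell cycle were higher in 10 of 14 tested, and none was called lower (median 1.44, and 1.29 with no intensity filter). *Cdk1* and *Bub1*, also on this list, reached at most 3.16 and 3.64 on the 12 arrays, under the floor, and were not tested. *Dcx*, doublecortin, a microtubule protein of young neurons, lay between 9.35 and 9.73 (median 9.55) on the pituitary-labelled arrays and between 5.82 and 7.13 (median 6.53) on the hippocampus arrays, a difference of 2.995 (SE 0.201, adjusted p = 3.23e-07). *Sox4* and *Sox11*, factors of differentiating neurons, were higher by 2.33 and 1.94, *Prokr2*, a receptor that neuroblasts need to reach the bulb, by 2.105, *Igfbpl1* by 1.605, and *St8sia4* and *St8sia2*, which put polysialic acid on NCAM, by 1.797 and 1.09. *Pcna*, the sliding clamp of DNA replication, was higher by 1.51. *Mcm2*, a replication helicase subunit, passed the p threshold but stayed under 2-fold (0.94), and *Sox2*, a stem cell factor that astrocytes also carry, did not pass (0.26, adjusted p = 0.0604).

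Olfactory ensheathing glia were read from 8 tested genes, of which 5 were higher (median 1.08). *Frzb*, a secreted Wnt inhibitor, lay between 9.55 and 10.104 (median 9.97) on the pituitary-labelled arrays and between 6.49 and 7.04 (median 6.78) on the hippocampus arrays and was higher by 3.14 (SE 0.12, adjusted p = 8.03e-09). *Fabp7*, a fatty acid-binding protein of glia, was higher by 2.4 and *Npy*, neuropeptide Y, by 1.91. *Sox10* (0.43), *Erbb3* (0.31) and *S100b* (0.12), which other glia express too, were not called.

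Genes of meninges and fibroblasts were higher in 12 of 15 tested, with a median difference of 1.73. *Ogn*, osteoglycin, lay between 9.08 and 10.68 (median 10.05) on the pituitary-labelled arrays and between 6.56 and 9.204 (median 7.95) on the hippocampus arrays, a difference of 2.01 (SE 0.45, adjusted p = 0.00201) with some overlap. *Bgn*, biglycan, differed by 1.76, and *Aldh1a2*, which makes retinoic acid in the meninges, by 2.23 (from 6.13 to 8.13, median 7.37, against 4.54 to 5.46, median 5.06). *Slc6a13* and *Slc22a6*, transporters of the leptomeninges, were higher by 1.89 and 1.58. The collagen genes *Col1a1* (3.02) and *Col1a2* (2.63) were highest on HET 2, with *Col1a1* at 10.69 there and at 6.88 to 8.79 on the other pituitary-labelled arrays.

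On the hippocampus side, *Neurod6* and *Neurod2*, basic helix-loop-helix factors of forebrain glutamatergic neurons, were both lower. *Neurod6* lay between 3.28 and 4.16 (median 3.78) on the pituitary-labelled arrays and between 8.002 and 8.71 (median 8.59) on the hippocampus arrays, a difference of -4.75 (SE 0.17, adjusted p = 4.75e-09), and with the pituitary-labelled arrays, all under the floor, set to it, at least 17.9-fold lower there. *Neurod2* lay between 4.18 and 5.27 (median 4.45) on the pituitary-labelled arrays and between 8.44 and 9.88 (median 9.28) on the hippocampus arrays, with a difference of -4.71 (SE 0.24, adjusted p = 5.33e-08). *Prox1*, the homeobox factor that sets dentate granule cell identity, was lower, at -3.63 (from 3.54 to 4.39, median 4.19, against 7.21 to 8.34, median 7.699, adjusted p = 8.72e-08). *Mas1*, the receptor for angiotensin-(1-7), lay between 2.79 and 3.59 (median 3.22) on the pituitary-labelled arrays and between 7.63 and 9.3 (median 8.73) on the hippocampus arrays, with a difference of -5.39 (SE 0.25, adjusted p = 2.07e-08), or at least 19.8-fold against the floor. The 15 largest measured falls without overlap that were also called without 5 arrays that carry genes of other tissues, described further below, held, beside these 4, *Pkp2* (-4.53), the junction protein plakophilin, *Cabp7* (-4.49), a calcium-binding protein, *Itpka* (-4.13), a kinase of dendritic spines, *Thpol1* (-3.803), *Wnt2* (-3.62), *Kcnt2* (-3.54), a sodium-activated potassium channel, *Onecut2* (-3.43), *Htr1b* (-3.39), *Epha8* (-3.34), *Il16* (-3.33) and *Dnah9* (-3.32), a dynein of motile cilia. *Pkp2*, *Thpol1*, *Wnt2*, *Onecut2* and *Il16* were under the floor on all pituitary-labelled arrays. They were at least 17-fold, 5.72-fold, 7.85-fold, 6.9-fold and 6.85-fold lower there. Several of the 15 falls reached or exceeded the lowest hippocampus level on other arrays of the series. On the striatum arrays *Itpka* stood at 8.32 to 8.71, *Htr1b* at 9.61 to 10.17, *Onecut2* at 7.07 to 7.96 and *Epha8* at 6.34 to 7.34. On the arrays titled olfactory bulbs *Pkp2* stood at 8.13 to 8.75, *Prox1* at 6.66 to 7.88, *Kcnt2* at 6.74 to 7.77 and *Htr1b* at 5.08 to 8.24.

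Of 15 tested genes of hippocampal pyramidal cells, 12 were lower and 1, *Pcp4* (1.49), higher, with a median difference of -1.11. *Rgs14*, which limits plasticity in field CA2, was lower, at -2.51, *Neurod1* at -2.14 and *Bok* at -1.44. The cortical patterning factors *Emx1*, *Emx2* and *Lhx2* were lower, at -1.13, -1.11 and -1.08, although all of them are also known from the developing or adult bulb. *Wfs1*, which marks field CA1, was called (-1.02, adjusted p = 0.0196) but overlapped, since hippocampus KO 1 stood at 8.59 and the others at 10.41 to 11.16, against 9.02 to 9.65. *Fibcd1* and *Mpped1* had the same low array, at 5.17 and 5.95 on KO 1. Without the 5 arrays, only WT 1 and this low KO 1 set the hippocampus side of the difference. All 3 were then under 2-fold (*Wfs1* -0.31, *Fibcd1* -0.53 and *Mpped1* -0.41). *Zbtb20* passed the p threshold but stayed under 2-fold (-0.92).

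Of 9 tested genes of dentate granule cells, 5 were lower and 1, *Stxbp6* (1.297), higher (median -1.55, and -0.96 with no intensity filter). *Pdyn*, prodynorphin, was lower, at -2.22, *C1ql2*, a secreted synapse organizer, at -2.03, *Calb1*, calbindin, at -1.73 and *Plk5* at -1.55. For these genes hippocampus KO 1 tended to lie at the other end, with the highest level of the 6 for *Prox1* (8.34), *C1ql2* (8.89), *Plk5* (7.19) and *Pdyn* (6.98), while KO 2 had the lowest level for *Prox1* (7.21), *Plk5* (4.89) and *Pdyn* (4.77). The 2 KO hippocampus arrays thus stood at opposite ends for dentate genes, and so did their CA1 genes in reverse, with *Wfs1* at 8.59 on KO 1 and 11.16 on KO 2.

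Genes of the excitatory synapse were lower in 3 of 10 tested and none was called higher (median -0.82). *Nptx1* and *Nptxr*, a secreted pentraxin and its membrane-bound relative that cluster AMPA receptors, were lower, at -2.18 and -2.05, and *Nrgn*, neurogranin, at -1.45 (from 9.77 to 10.36, median 10.27, against 11.43 to 11.78, median 11.57). *Slc17a7*, the vesicular glutamate transporter VGLUT1, passed the p threshold at -0.95 but stayed under 2-fold. Among 11 glutamate receptor subunits 1 was higher, *Grik3*, a kainate receptor (1.67), and 1 lower, *Grm3*, a metabotropic receptor (-1.25), with a median of -0.32. These counts are near the shares of all genes tested (11.1% higher and 5.01% lower). Of 8 GABA-A receptor subunits 3 were higher, *Gabrq* (1.999, at least 1.59-fold against the floor), *Gabra3* (1.64) and *Gabrd* (1.11). *Gabra5*, an alpha subunit of extrasynaptic receptors in hippocampal pyramidal cells, stood at -0.93 (adjusted p = 5.65e-05), with no overlap.

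Of 8 tested corticosteroid and serotonin genes 2 were higher and 3 lower (median -0.69). *Htr1b* and *Htr1a*, inhibitory serotonin receptors, were lower, at -3.39 and -1.45, and *Htr2a*, an excitatory one, was higher by 1.87 (from 8.44 to 8.78, median 8.698, against 5.94 to 8.001, median 6.67). *Htr2c* was lower, at -2.89, but uneven, at 9.804 and 9.58 on hippocampus WT 2 and KO 2, which carry choroid plexus genes, and 4.71 to 7.43 on the other 4; without the 5 arrays it was not called (-1.64, adjusted p = 0.193). *Nr3c1*, the glucocorticoid receptor, passed the p threshold at -0.44. Genes induced by neuronal activity were higher in 5 of 15 and lower in 1 (median 0.46). *Ier2* (1.81), *Fosb* (1.68), *Fos* (1.43), *Inhba* (1.29) and *Npas4* (1.07) were higher, while *Arc* (-0.05), *Egr1* (0.36) and *Bdnf* (-0.15) did not reach the call. The call of *Npas4* was lost when any of several single arrays was left out.

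Neuropeptides and calcium-binding proteins went both ways, with 8 of 20 higher and 5 lower and a median of 0.29, which centring turned to -0.02. Single arrays moved it too, to 0.165 without hippocampus HET 2, 0.157 without hippocampus KO 2 and 0.456 without hippocampus KO 1. *Trh*, thyrotropin-releasing hormone, lay between 7.99 and 8.72 (median 8.58) on the pituitary-labelled arrays and between 3.45 and 5.06 (median 4.62) on the hippocampus arrays and was higher by 3.99 (SE 0.22, adjusted p = 7.53e-08). *Cartpt*, the CART peptide, was higher by 3.69, *Nmb*, neuromedin B, by 3.38 and *Crh*, corticotropin-releasing hormone, by 2.59. The reverse held for *Sst*, somatostatin, between 5.69 and 6.56 (median 5.91) on the pituitary-labelled arrays and between 8.53 and 9.17 (median 9.01) on the hippocampus arrays, a difference of -2.95 (SE 0.14, adjusted p = 3.16e-08), and for *Pdyn* (-2.22), *Grp* (-1.797) and *Calb1* (-1.73). *Nts*, neurotensin, was not called (-1.303, adjusted p = 0.0544), with hippocampus KO 1 at 4.13 and the others at 6.32 to 7.94.

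Of 28 tested axon guidance genes 13 were lower and 5 higher, with a median of -0.68. Where the filter asked for at least 6 arrays at an intensity of 20, the median was -0.43. All 3 tested Slit ligands were lower, *Slit1* at -1.84, *Slit2* at -1.74 and *Slit3* at -2.09. *Robo3*, a member of their receptor family, was called at -1.41. Its means of 2.78 (pituitary-labelled) and 4.197 (hippocampus) were both under the floor, so that no difference is resolved for it. The netrin receptors *Unc5a* and *Unc5d* were lower, at -2.44 and -2.11, and the ephrin receptors *Epha8*, *Epha4*, *Epha7* and *Ephb2* at -3.34, -1.89, -1.66 and -1.305. *Slit1* lay between 7.26 and 7.75 (median 7.61) on the pituitary-labelled arrays and between 8.95 and 9.96 (median 9.39) on the hippocampus arrays (adjusted p = 1.70e-06). *Sema3a*, a repellent ligand that sorts olfactory axons in the mouse, stood out in the other direction, between 7.01 and 7.67 (median 7.17) on the pituitary-labelled arrays and between 3.44 and 3.98 (median 3.74) on the hippocampus arrays, a difference of 3.52 (SE 0.13, adjusted p = 4.75e-09), and *Efnb2*, *Sema3d*, *Sema5b* and *Epha3* were higher by 2.06, 1.75, 1.61 and 1.48.

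In the Wnt and BMP pathways 8 of 23 genes were higher and 4 lower (median 0.31, and 0.00 after centring). Among ligands, *Wnt5a* (2.499), *Wnt7a* (1.42) and *Bmp7* (2.59) were higher and *Wnt2* (-3.62) and *Wnt4* (-1.14) lower. Among inhibitors, *Frzb* (3.14), *Nog*, the BMP antagonist noggin (2.03), *Grem1* (1.93) and *Sfrp1* (1.91) were higher, while *Dkk3* (-2.42) and *Chrd*, chordin (-2.09), were lower. *Nog* lay between 6.54 and 7.203 (median 7.07) on the pituitary-labelled arrays and between 4.63 and 5.31 (median 4.95) on the hippocampus arrays, and *Chrd* between 3.86 and 4.77 (median 4.43) on the pituitary-labelled arrays and between 6.11 and 6.99 (median 6.47) on the hippocampus arrays, so that 2 antagonists of the same ligands stood in opposite directions without overlap.

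**Figure D3:**
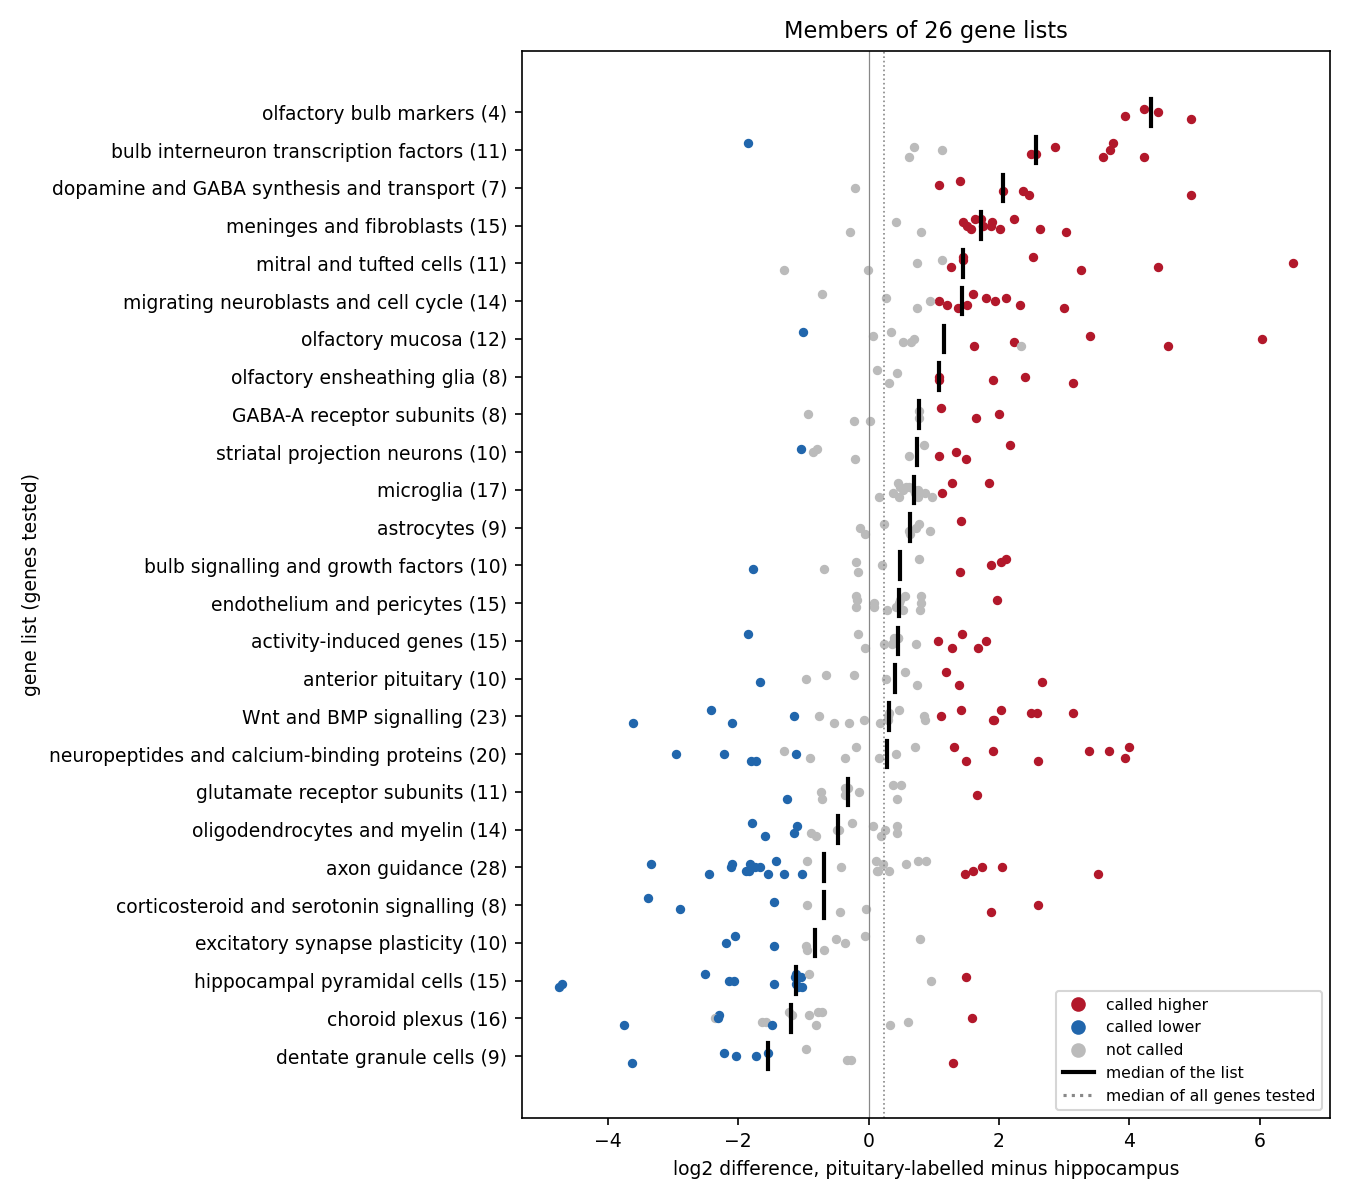
Log2 difference, pituitary-labelled minus hippocampus (x axis), of the tested members of 26 gene lists (y axis, ordered by median, number of genes tested in brackets); black bars are list medians, from -1.55 for dentate granule cells to 4.34 for the 4 bulb markers, and the dotted line is the median of all genes (0.24).

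Myelin genes were lower in 4 of 14 tested, with none called higher (median -0.47). Without the 5 arrays that carry genes of other tissues, described further below, the median was -0.23 and 3 were lower. *Opalin* (-1.79), *Mog* (-1.58), *Mag* (-1.15) and *Mal* (-1.097), proteins of mature myelin, were lower, *Mog* between 7.54 and 8.13 (median 7.92) on the pituitary-labelled arrays and between 9.03 and 9.84 (median 9.49) on the hippocampus arrays, whereas *Pdgfra* (0.44, adjusted p = 0.0103), *Gpr17* (0.07) and *Olig2* (0.19), which mark precursors or the whole lineage, were not called. Of 9 astrocyte genes 1, *Acsbg1*, was higher (1.41), with a median of 0.64. Of 15 genes of endothelium and pericytes 1, *Vtn*, was higher (1.97), with a median of 0.47. Both counts are no more than the share of all genes tested that were higher (11.1%). Of 10 genes of striatal projection neurons 4 were higher and 1 lower (median 0.74), and their mean was 5.98 to 6.198 on the pituitary-labelled and 5.34 to 6.03 on the hippocampus arrays against 9.29 to 9.74 on the striatum arrays. Of 10 genes of bulb signalling and growth factors 4 were higher and 1 lower (median 0.49).

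Few miRNA genes gave a signal on these arrays. Of the miRNA symbols, 8 passed the intensity filter, and all of them had a mature sequence in RefSeq (GRCr8). The probe sets read the precursor, not the mature miRNA. These genes were chosen after their values were seen. Of the 8, 6 were lower, *rno-mir-341* at -2.22, *Mir1193* at -2.14, *Mir504* at -2.02, *Mir344-1* at -1.76, *Mir204* at -1.48 and *Mir221* at -1.17. *Mir207* was higher by 1.04 and *Mir212* was not called (0.32, adjusted p = 0.0511). Of all genes tested 5.01% were lower. *Mir1193*, *Mir504*, *Mir204* and *Mir221* were under the floor on all pituitary-labelled arrays. They passed the filter only through hippocampus and could only come out lower, so the count is no result about miRNA genes. Against the floor *Mir1193* and *Mir504* were at least 2.20-fold and 2.08-fold lower, and for *Mir204* (0.996) and *Mir221* (1.06) no difference is resolved. *Mir344-1* lay between 6.41 and 7.004 (median 6.78) on the pituitary-labelled arrays and between 8.13 and 8.83 (median 8.56) on the hippocampus arrays, without overlap (adjusted p = 1.24e-06). The mature sequences of the 4 lower genes without overlap are shown, 5′ to 3′ with the seed (bases 2 to 8) in capitals, and no 2 of them share a seed.
rno-miR-341: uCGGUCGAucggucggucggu
rno-miR-1193-5p: aUGGUAAAccggugacgugc
rno-miR-1193-3p: uAGGUCACccguuuuacuaucc
rno-miR-504: aGACCCUGgucugcacucuguc
rno-miR-344-5p: uCAGGCUCcuggcuagauuccagg
rno-miR-344-3p: uGAUCUAGccaaagccugaccgu

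Several arrays carried genes of other tissues. On the pituitary-labelled arrays *Cyp2g1*, a cytochrome P450 of the olfactory mucosa, reached 10.07 (HET 1), 7.86 (HET 2) and 11.103 (KO 2), while WT 1, WT 2 and KO 1 had 2.96, 2.73 and 2.69, within the range of the hippocampus arrays (2.495 to 3.06). *Bpifb3*, a secreted protein, had 10.36 on KO 2 and 8.77 on HET 1 and *Cnga2*, the channel of olfactory transduction, 6.98 and 5.76, against 3.44 to 5.24 for *Cnga2* on the other 4. The collagenase gene *Mmp13* stood at 8.53 on HET 2, 7.65 on KO 2 and 4.41 on HET 1, and at 2.396 to 2.86 on the other 3. *Ibsp*, bone sialoprotein, stood at 6.64 on HET 2, 5.59 on KO 2 and 5.33 on HET 1, and at 2.54 to 3.72 on the other 3. Both genes were picked after their values were seen. Of 12 tested mucosa genes 5 were higher and 1 lower (median 1.16), and their mean was 6.996 on KO 2 and 6.37 on HET 1, 4.18 to 5.26 on the other 4, and 3.64 to 3.84 on the hippocampus arrays. The difference of *Cyp2g1* over all arrays (3.398, adjusted p = 0.0400) rests on those 3 arrays, since without KO 2, HET 1 and HET 2 it was -0.14. In all, 56 of the 1126 higher genes were under 2-fold on WT 1, WT 2 and KO 1.

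*Omp* and *S100a5* behaved differently from *Cyp2g1*. *Omp* had 9.32 and 9.15 on the WT arrays, where *Cyp2g1* was low, 9.48 on KO 2 and 6.54 on KO 1, all above the highest hippocampus array (4.49). Without the 5 arrays *Omp* was higher by 3.91 (adjusted p = 4.20e-04), *S100a5* by 5.82 (0.00123) and *Gng13*, a G protein subunit, by 1.19 (0.0106).

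Among the hippocampus arrays, WT 2 and KO 2 carried genes of the choroid plexus, the epithelium that secretes cerebrospinal fluid. *Ttr*, transthyretin, stood at 12.499 and 12.43 there and at 6.58 to 8.73 on the other 4, *Kl*, klotho, at 10.12 and 10.08 against 3.45 to 3.76, and *Folr1*, a folate receptor, at 8.19 and 8.41 against 3.77 to 4.29. The mean of the 16 tested choroid plexus genes was 8.15 on each of the 2 arrays and 4.10 to 4.46 on the others, and 3.87 to 4.72 on the pituitary-labelled arrays. The list had 4 lower and 1 higher gene and a median of -1.19, which became 0.07 without the 5 arrays. Of the 506 lower genes, 44 were under 2-fold against the 4 other hippocampus arrays. *Aqp1*, a water channel, was higher by 1.59, a call that leaving out single arrays ended, and *Kcnj13*, a potassium channel, went from 0.33 to 2.94 without the 5 arrays, with 5.12 to 8.11 on the pituitary-labelled ones.

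**Figure D4:**
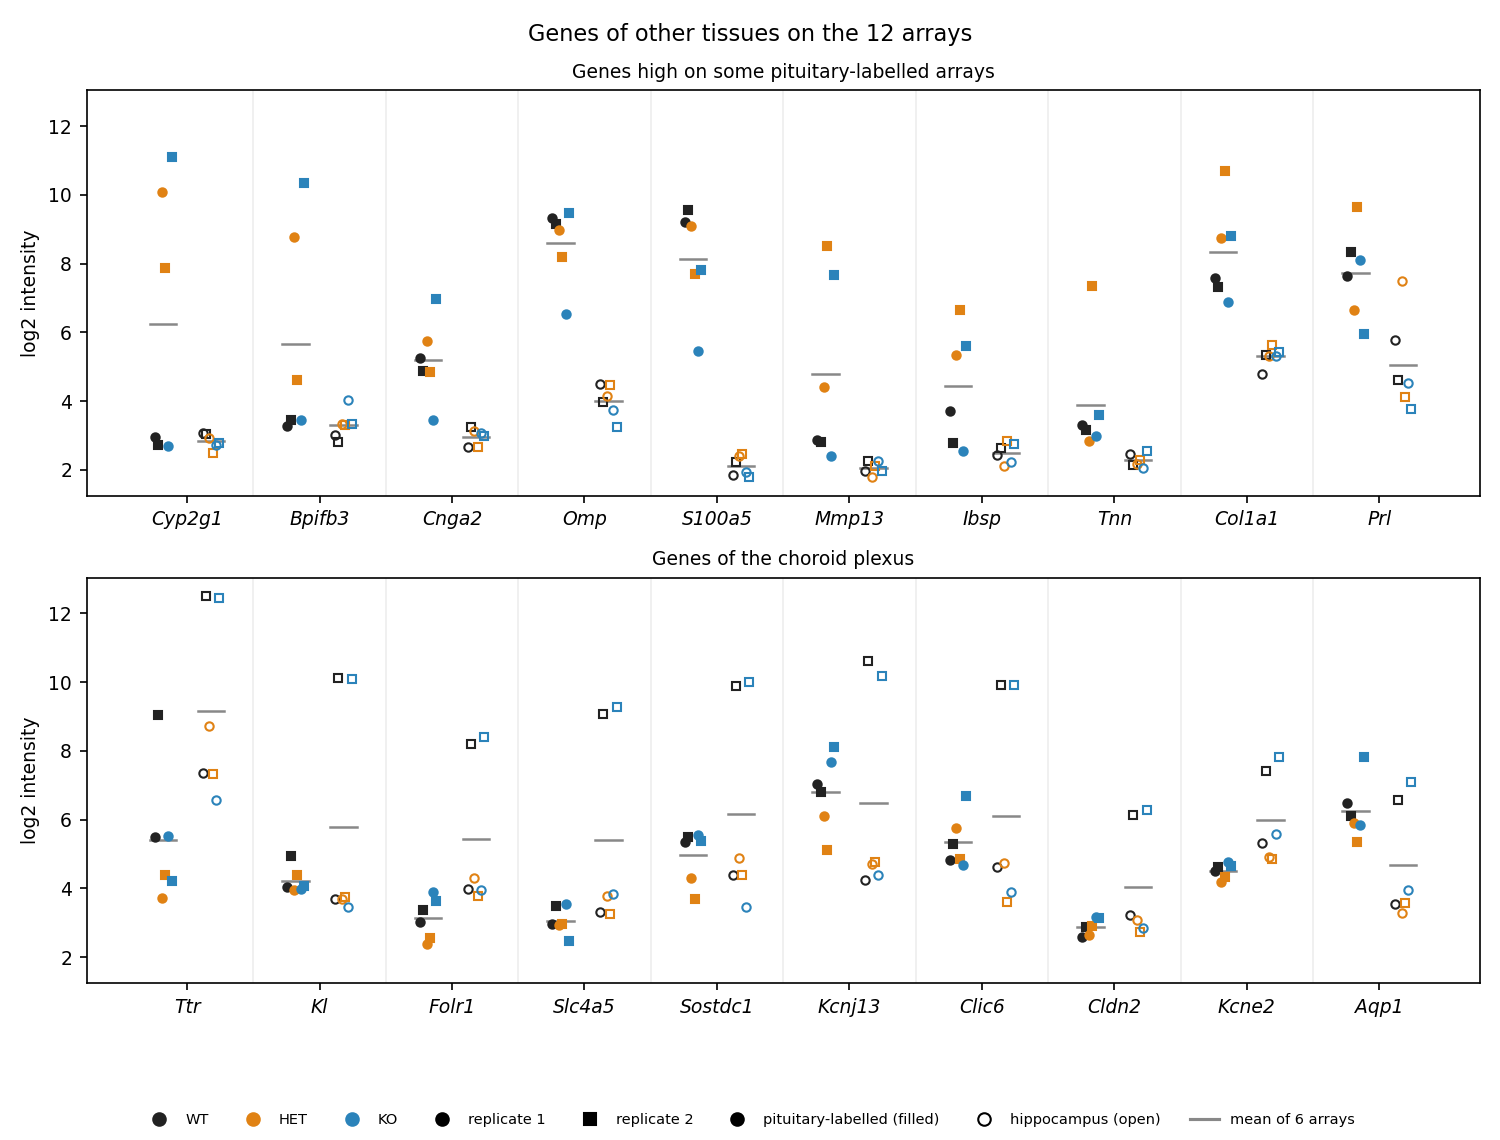
Log2 intensity (y axis) of 10 genes high on some pituitary-labelled arrays (top) and 10 genes of the choroid plexus (bottom) on each of the 12 arrays, filled for pituitary-labelled and open for hippocampus. *Cyp2g1* is split between 3 high and 3 low pituitary-labelled arrays, and *Ttr*, *Kl* and *Folr1* are high on hippocampus WT 2 and KO 2.

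When pituitary-labelled KO 2, HET 1 and HET 2 and hippocampus WT 2 and KO 2, called the 5 arrays here, were left out, 1104 genes were higher and 583 lower, and 926 and 433 of the original calls remained. No pituitary-labelled HET array was left in that fit, which kept genotype as a block. Its differences thus came from pituitary-labelled WT 1, WT 2 and KO 1 against hippocampus WT 1 and KO 1. The hippocampus HET arrays added nothing to them. The bulb lists held, with medians of 4.21 for the 4 markers, 2.55 for interneuron factors, 1.55 for mitral and tufted cells and 1.59 for neuroblasts. So did dentate granule cells (-1.65) and pyramidal cells (-1.20), while the mucosa list fell from 1.16 to -0.03. Of 10 tested anterior pituitary genes 3 were higher and 1 lower (median 0.41), with a mean of 4.74 to 5.63 on the pituitary-labelled arrays against 10.34 to 10.605 on those titled olfactory bulbs. *Prl* had its highest level of the 12 arrays on HET 2 (9.64) and was called higher (2.67, adjusted p = 0.00316), with *Gh1* (1.38) and *Cga*, the shared hormone alpha chain (1.18), also highest on HET 2 (7.37 and 6.26). On the hippocampus arrays HET 1 was the high one, with 7.48 for *Prl* and 5.899 for *Gh1*. The part of other tissues in the differences of single genes was not tested beyond these values.

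The targeted gene followed its labels in both titles. *Csf1r* had 9.12 and 8.85 on the WT, 8.38 and 8.62 on the HET and 3.15 and 2.91 on the KO pituitary-labelled arrays, and 8.43 and 8.34, 7.76 and 7.65, and 3.39 and 2.73 on the hippocampus arrays. Whether the difference between the titles depends on the genotype was tested for all 10107 genes. None passed at an adjusted p under 0.05 (0%; the smallest was 0.283), 369 had an unadjusted p under 0.05, and the contrasts of KO or HET with WT alone gave 0 genes each, with 393 and 360 at an unadjusted p under 0.05. With 2 arrays per genotype and title this does not show that the differences are alike. The count depended on single libraries. It was 10 without pituitary-labelled KO 1, 2 without HET 1 (*Mmp9* and *Tnn*), 1 without KO 2 (*Thbs4*) and 1 without hippocampus HET 2 (*Gpr151*), and among the 10 were the mucosa genes *Cyp2g1* and *Reg3g*, which are high on pituitary-labelled KO 2. Within each genotype the share of genes called was close, 16.3% in WT, 16.2% in HET and 15.6% in KO. Of the 1632 called genes 1627 had the same sign in all 3. That is largely fixed in advance, since the genes were called on these same arrays, and does not show that the genotypes are alike.

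The 10 genes with the smallest p of this test are a description of where the genotypes came nearest to differing. Among them were *C1qc* and *Aif1*, genes of microglia and macrophages, *F13a1* and *Cd74*, which macrophages also express, and *Fosb*, a transcription factor induced by activity, and the others were *Fgf6*, *Cd7*, *Grap*, *Slc6a20a* and *Ccl24*. *C1qc* stood above hippocampus in WT, with 6.42 and 6.51 against 5.18 and 5.43. In KO it had 2.84 and 3.15 against 3.87 and 3.88, all under the floor, so that no difference is resolved there. Its genotype test gave an adjusted p = 0.283 by limma's moderated F test. *Fosb* had 6.51 and 6.92 on the WT, 6.77 and 6.904 on the HET and 5.02 and 4.62 on the KO pituitary-labelled arrays, while hippocampus lay between 4.05 and 4.69 in all (adjusted p = 0.283). *Cd7* had 8.402 and 8.21 in WT and 4.71 and 4.01 in KO on the pituitary-labelled arrays, and 5.48 and 5.18 against 4.26 and 3.69 in hippocampus.

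The mean of the 17 tested microglia genes was lower on the KO arrays in both titles, although not every gene was. It was 7.23 to 7.41 on the WT and HET pituitary-labelled arrays and 3.70 on each KO array, and 6.17 to 6.48 and 3.20 to 3.75 in hippocampus. The median difference between the titles was 1.01 in WT, 1.06 in HET and 0.24 in KO. On the KO arrays the list means were under the floor in both titles, so that the KO median is poorly resolved. It was also no larger than the median difference of all genes tested (0.24). Over all arrays 3 genes were higher, *Olfml3* (1.85), *Gpr34* (1.28) and *Tyrobp* (1.13), beside 11.1% of all genes tested. For *Gpr34* and *Tyrobp* 2 hippocampus arrays each were under the floor. With these set to it, the 2 genes were at least 1.45-fold and 1.96-fold higher, which leaves a 2-fold difference unresolved. *Olfml3*, an extracellular matrix protein, had 7.95 and 8.205 in KO against 7.86 and 7.37 in WT. *Cx3cr1*, the microglial chemokine receptor, had 9.11 and 9.25 in WT and 3.33 and 3.18 in KO on the pituitary-labelled arrays, and 8.51 and 8.17 against 3.32 and 2.57 in hippocampus. The median difference of the activity-induced list was 0.70 in WT, 0.68 in HET and 0.12 in KO, and that of the bulb markers 4.18, 4.62 and 4.21.

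**Figure D5:**
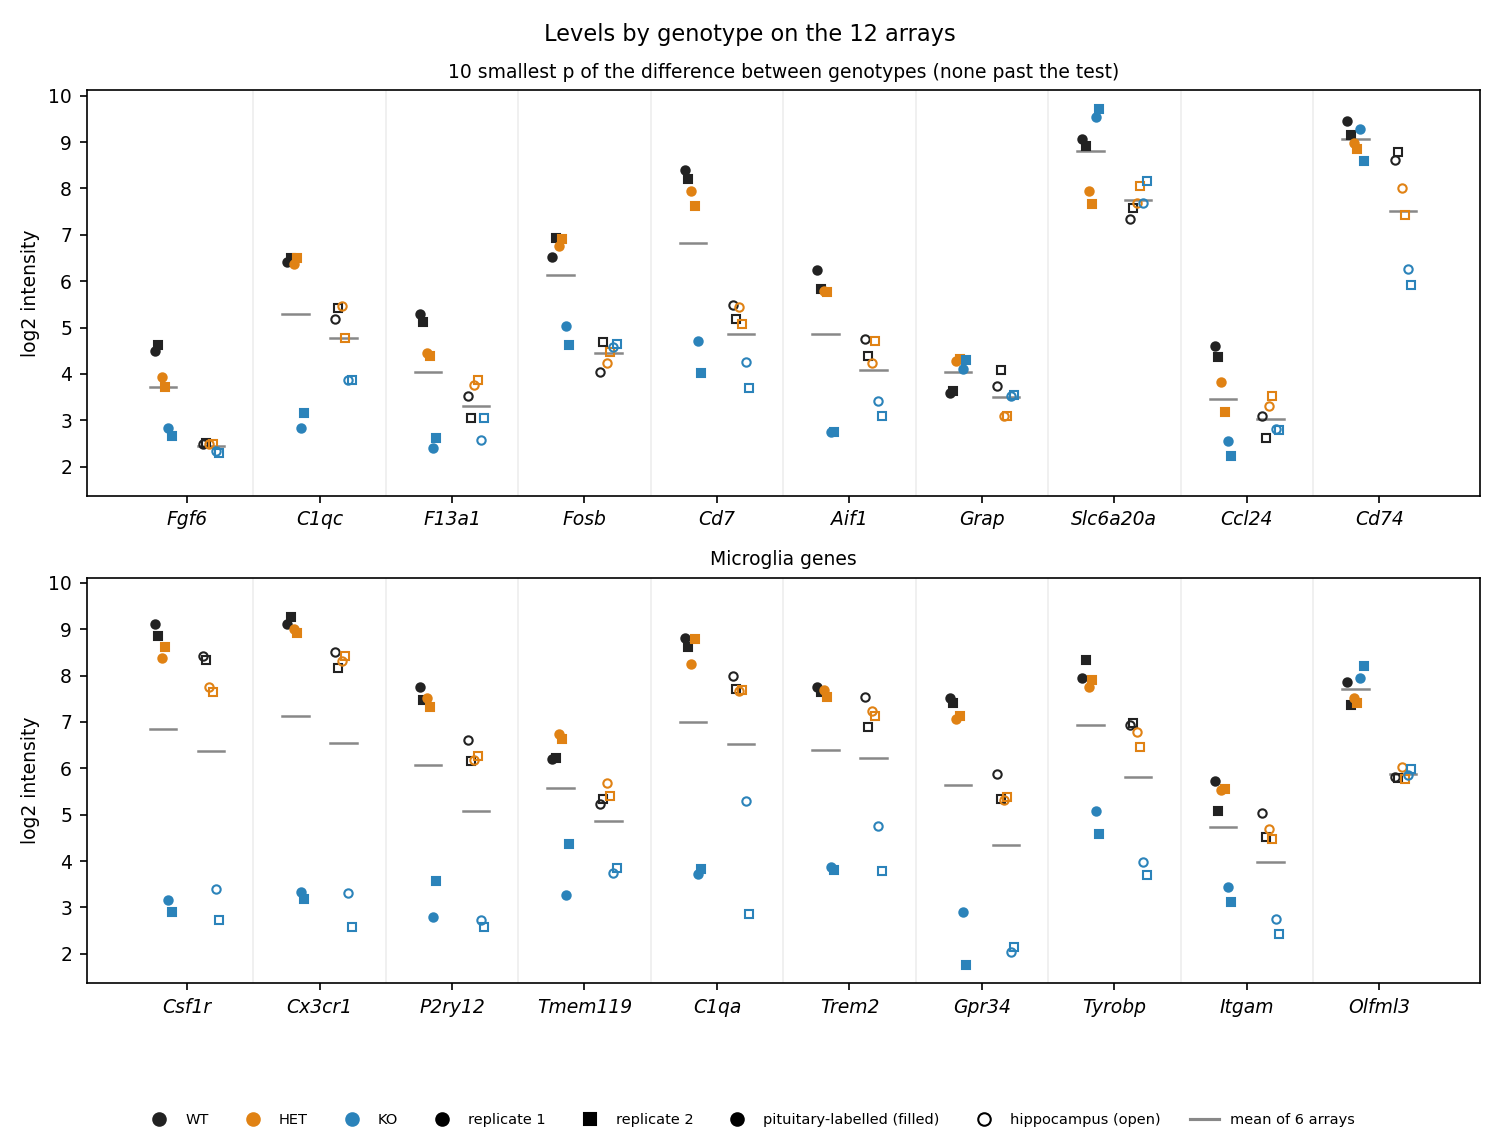
Log2 intensity (y axis) of the 10 genes with the smallest p for a genotype-dependent difference (top) and of 10 microglia genes (bottom) on each of the 12 arrays, filled for pituitary-labelled and open for hippocampus, coloured by genotype. *Csf1r* and *Cx3cr1* are low in KO under both titles, and *Olfml3* is not.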

How the data were processed

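All 32 arrays were of the Rat Gene 2.1 ST type (Affymetrix), and per the labels and the methods the authors normalized all arrays by RMA (background correction, quantile normalization, summarization per probe set). The deposited values are RMA intensities on a linear scale, and log2 was taken of them here. The RMA version and hybridization batches are not given in the sources used here. Of 36685 probe sets, 14824 had 1 gene symbol in the platform annotation, 829 several and 21032 none. The probe set with the highest mean stood for each of 14557 genes, and 10107 genes with at least 1 of the 12 arrays at an intensity of 20 were tested. The number of arrays limits the precision.

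limma 3.58.1 (R 4.3.3) was fitted to the 12 arrays with genotype as a block, pituitary-labelled minus hippocampus, and p-values were adjusted by Benjamini-Hochberg over all genes tested. A call needs an adjusted p under 0.05 and a difference of at least 2-fold. A second fit with a term for genotype within title tested, by a moderated F test, whether the difference depends on genotype. Errors are standard errors of the fit, with 6 arrays per title. The labels do not say which arrays share a rat, so p-values measure the spread between these arrays. Named were the 15 largest rises and 15 largest falls without overlap that were also called without pituitary-labelled KO 2, HET 1 and HET 2 and hippocampus WT 2 and KO 2, the 10 smallest p of the genotype test, and members of 26 lists holding 488 genes, of which 310 were tested. The members and lists were chosen with earlier results of these data known. Other filters, scalings, variance models, blocks and array sets were tried, with each array left out in turn. Sequences are from RefSeq (GRCr8).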

Additional observations from a re-analysis of the deposited data

Results flagged for a closer look

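Of 388 groups of 6 arrays, 1 per title for each named gene tested other than *Ebf2*, 28 had an array that stood far from the rest by Dixon's test of the gap to its nearest neighbour. Chance marks about 1 in 20 such groups. Levels are log2 intensities. On hippocampus KO 1 this was *Erbb3* at 6.695 (the others 7.07 to 7.29), *Fibcd1* at 5.17 (the others 7.39 to 8.32), *Htr1b* at 6.26 (the others 8.58 to 9.33), *Mpped1* at 5.95 (the others 7.88 to 8.72), *Thbs4* at 3.33 (the others 3.83 to 4.08) and *Wfs1* at 8.59 (the others 10.41 to 11.16). Pituitary-labelled HET 2 stood apart with *Mmp9* at 6.86 (the others 3.601 to 4.501), *Sox11* at 6.802 (the others 6.35 to 6.49), *Sox4* at 7.803 (the others 7.36 to 7.48), *Tnn* at 7.35 (the others 2.84 to 3.61) and *Zic2* at 7.35 (the others 8.13 to 8.54). For pituitary-labelled KO 2 it held for *Atp6ap1l* at 8.35 (the others 8.66 to 8.76), *Grp* at 3.399 (the others 4.16 to 4.47), *Nog* at 6.54 (the others 7.02 to 7.203) and *Reg3g* at 5.62 (the others 2.21 to 2.65). On hippocampus KO 2 this was *Mir221* at 3.54 (the others 4.46 to 4.68), *Pkp2* at 8.03 (the others 8.42 to 8.59), *Slc17a7* at 10.43 (the others 11.08 to 11.44) and *Zbtb20* at 9.81 (the others 10.18 to 10.34). Hippocampus HET 2 stood apart with *S100b* at 10.78 (the others 10.88 to 10.93), *Sema5b* at 4.45 (the others 5.03 to 5.28) and *Th* at 3.61 (the others 4.78 to 5.28). For hippocampus HET 1 it held for *Cga* at 4.45 (the others 3.62 to 3.91) and *Gpr151* at 7.03 (the others 2.31 to 3.06). On pituitary-labelled WT 1 this was *Pcna* at 8.57 (the others 8.29 to 8.35) and *Slit1* at 7.26 (the others 7.58 to 7.75). Hippocampus WT 2 stood apart with *Dnah9* at 7.48 (the others 7.68 to 7.799). For pituitary-labelled WT 2 it held for *Ttr* at 9.06 (the others 3.72 to 5.51).

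Probe sets without a single gene symbol, which enter none of the comparisons above, gave 655 higher and 2102 lower of 11963 tested under the same rule, the reverse of the split of the named genes (1126 and 506). Over all probe sets the median intensity was 16.4 to 17.5 on the pituitary-labelled and 18.9 to 21.0 on the hippocampus arrays, while the median log2 level of the genes was 5.53 to 5.59 and 5.11 to 5.30.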

How the results depend on the processing

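Of 32 settings tried for the difference between the titles, scaling and the call rule moved the counts. Repeated quantile normalization gave 690 higher and 770 lower genes, median centring 616 and 911, the adjusted p alone 4538 and 1882, a 4-fold rule 208 and 118, and limma's treat against 2-fold 405 and 190, against 1126 and 506. Leaving out each array in turn gave 1078 to 1208 higher and 488 to 534 lower genes, and 94 to 98 higher and 53 to 63 lower list members. The genotype test gave 0 to 10 genes when each array was left out, and 1 (*Fgf6*) with 24 arrays. With genotype and replicate number together as a replicate block, 1129 genes were higher and 509 lower. Arrays with the same number deviated together with correlations of 0.01 (WT), 0.06 (HET) and 0.15 (KO). These correlations rest on few arrays and cannot decide whether arrays with the same number share a rat. The labels do not say so either, and the numbers were not used to pair the arrays. Of 157 named genes called, leaving *Ebf2* aside, 129 were called under every alternative. Leaving out 1 array raised the adjusted p to at most 0.0890 for *Aqp1*, 0.0964 for *Cyp2g1*, 0.0687 for *Fibcd1*, 0.0563 for *Mpped1*, 0.0799 for *Npas4* and 0.0543 for *Mmp13*, and put *Cga* (0.96), *Mir207* (0.96), *Slc6a20a* (0.91), *St8sia2* (0.97) and *Wfs1* (-0.75) under 2-fold. *Cyp2g1* turned to -0.14 without pituitary-labelled KO 2, HET 1 and HET 2 and to -0.13 without the 5 arrays. Several list medians also moved by over 1.5 times. Without the 5 arrays that of corticosteroid and serotonin genes went from -0.69 to -0.38, of striatal projection neurons from 0.74 to 0.27 and of microglia from 0.70 to 0.40, and without hippocampus WT 2 or KO 2 that of the choroid plexus from -1.19 to -0.61 and -0.58. Median centring gave 0.47 for GABA-A receptor subunits (from 0.78), 0.34 for astrocytes (0.64), 0.16 for endothelium and pericytes (0.47), -0.62 for glutamate receptor subunits (-0.32) and -0.77 for myelin (-0.47). Beyond the arrays left out, the cause was not tested. Genes near background on both titles have differences that the arrays resolve poorly.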
